A study of Mus musculus with 2 samples.

Results

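The 9 protein-coding genes followed here are the kinases Cdk7, Cdk9, Cdk12 and Cdk13, their cyclin partners Ccnh (cyclin H), Ccnt1 and Ccnt2 (cyclins T1 and T2) and Ccnk (cyclin K), and Hexim1, which encodes an inhibitor of the CDK9 kinase. They were chosen by name for their role at RNA polymerase II, but with earlier results of these data known. They are 9 of the 21458 protein-coding genes that could be placed with a strand. The data are CHD2 ChIP-seq peak lists from ES-E14 cells (embryonic stem cells of a male mouse embryo, strain 129/Ola), precipitated with an antibody against CHD2 in 2 biological replicates. CHD2 is a chromatin remodeller of the CHD family, an ATP-driven enzyme that moves and spaces nucleosomes. All samples come from this 1 cell line, with no other genotype, treatment or time point. The questions are therefore where CHD2 peaks lay at these genes and how far the replicates shared them.

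RNA polymerase II carries a long repeated tail, the C-terminal domain (CTD), whose phosphorylation marks its progress. CDK7 with cyclin H, part of the general factor TFIIH, phosphorylates the tail near the start site. CDK9 with cyclin T1 or T2 forms P-TEFb, which releases polymerase from promoter-proximal pausing, and HEXIM1 holds P-TEFb inactive together with the 7SK RNA. CDK12 and CDK13 both pair with cyclin K and phosphorylate the tail as polymerase moves through the gene.

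The 5 mm10 lists differ in strictness. The optimal list (8282 peaks) and the conservative list (7530 peaks) are the authors' thresholded lists, built on how well peak ranks recur. The pooled relaxed list and each replicate's own relaxed list hold 300000 peaks each, so they include many weak ones. The signal is the authors' own value for the strength of a peak, given without a stated normalization, and a rank of 1 is the strongest peak of a list. Signals and ranks were compared within a list only. The optimal and conservative peaks at these genes carry the signal of the pooled list, so these 3 lists are not separate measurements, whereas the replicates' lists are. Read depth is unknown, and 2 replicates of 1 group leave nothing to test. Promoter peaks are those whose summit fell at most 1 kb from the gene's outer 5′ end in RefSeq (GRCm38.p6), and gene-body peaks those whose summit fell more than 1 kb inside. Positions are on mm10 unless stated, and a negative offset is upstream of the 5′ end.

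CHD2 promoter peaks were found at 4 of the 9 genes in the optimal list: Cdk12 (signal 436), Ccnt1 (103), Ccnk (30.6) and Cdk7 (27.3). Ccnh, Cdk9, Ccnt2, Cdk13 and Hexim1 had none there. The background was 14.1% of all protein-coding genes in that list. The conservative list added Hexim1, for 5 of 9 against a background of 13.6%. Each kinase and cyclin group was thus split in the optimal list: CDK7 without cyclin H, cyclin T1 without CDK9 or cyclin T2, and CDK12 and cyclin K without CDK13.

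**Figure D1:**
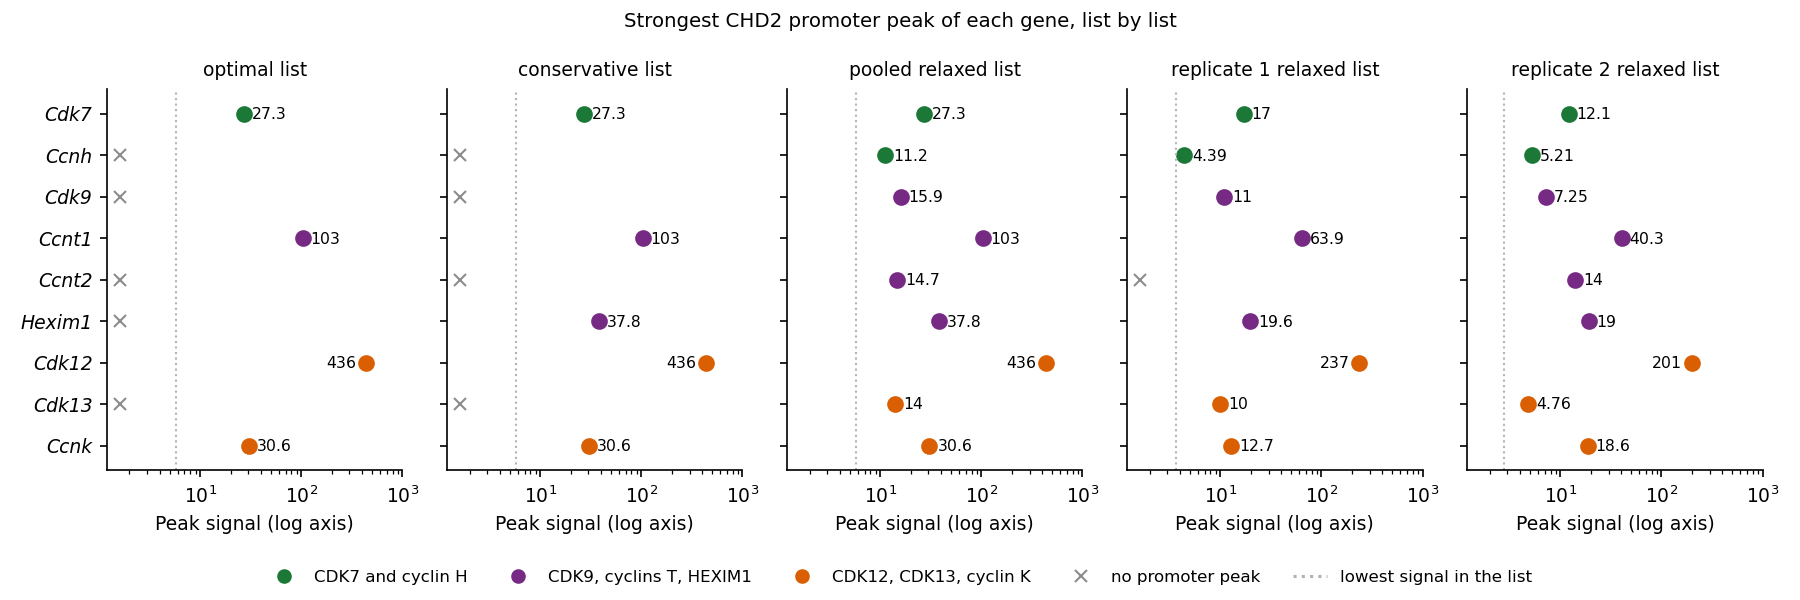
Signal of the strongest promoter peak (log axis) of each of the 9 genes in each of the 5 mm10 lists, coloured by kinase group; crosses mark genes with no promoter peak and dotted lines the lowest signal in the list. Cdk12 is highest in every list, at 436 in the optimal list and at 237 and 201 in replicates 1 and 2, and Hexim1 has a point in every list but the optimal one.

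Promoter windows that hold the 4 optimal summits are printed here. The one at Cdk12, the strongest of the 9, holds exact motif letters (TCGCGAGA) that the other windows lack. All are RefSeq promoter windows of GRCm38.p6, 300 bases each, from 250 before to 50 after a listed start. Capitals mark every exact match to 12 listed motifs on either strand and, in the first sequence, also a 10-base word that occurs 3 times. The Cdk12 summit falls outside the window of Cdk12 itself and inside that of Gm38963, a long non-coding RNA that starts on the opposite strand. Of the 9 genes, 8 are matched in this table. The windows are chr11:98202581-98202880 (minus strand), chr15:98567687-98567986 (minus), chr12:108179488-108179787 (plus) and chr13:100730893-100731192 (minus), in the order of the lines. The peaks run beyond their windows: within them, the Ccnt1 peak covers bases 1 to 87, the Ccnk peak bases 1 to 233 and the Cdk7 peak bases 118 to 300, so sequence of these peaks outside the windows was not searched.
Gm38963 window at Cdk12: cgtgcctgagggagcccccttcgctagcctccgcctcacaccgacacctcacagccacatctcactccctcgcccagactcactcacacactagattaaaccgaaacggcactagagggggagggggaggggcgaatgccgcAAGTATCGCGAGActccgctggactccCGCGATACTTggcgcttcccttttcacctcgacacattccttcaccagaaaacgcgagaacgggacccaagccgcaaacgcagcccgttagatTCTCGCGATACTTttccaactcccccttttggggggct
Ccnt1 window: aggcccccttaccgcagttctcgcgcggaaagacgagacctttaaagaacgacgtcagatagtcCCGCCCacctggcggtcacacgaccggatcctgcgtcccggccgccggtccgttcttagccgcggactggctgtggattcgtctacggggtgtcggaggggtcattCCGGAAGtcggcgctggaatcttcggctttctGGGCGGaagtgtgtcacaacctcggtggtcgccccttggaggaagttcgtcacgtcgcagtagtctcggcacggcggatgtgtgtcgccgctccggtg
Ccnk window: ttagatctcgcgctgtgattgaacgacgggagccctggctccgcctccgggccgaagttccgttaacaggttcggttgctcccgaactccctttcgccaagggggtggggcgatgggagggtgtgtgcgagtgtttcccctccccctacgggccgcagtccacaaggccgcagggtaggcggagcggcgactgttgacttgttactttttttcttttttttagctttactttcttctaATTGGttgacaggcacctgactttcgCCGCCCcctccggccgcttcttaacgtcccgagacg
Cdk7 window: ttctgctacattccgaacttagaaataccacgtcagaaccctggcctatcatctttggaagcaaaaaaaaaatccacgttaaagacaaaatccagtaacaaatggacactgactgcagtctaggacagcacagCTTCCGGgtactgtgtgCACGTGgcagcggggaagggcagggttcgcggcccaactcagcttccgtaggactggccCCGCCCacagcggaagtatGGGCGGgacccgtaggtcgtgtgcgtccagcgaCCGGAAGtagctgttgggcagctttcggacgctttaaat

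Cdk12 had one of the strongest CHD2 peaks in the genome. The optimal peak at chr11:98202451-98202890 had signal 436 and rank 4 of 8282. Its summit lay 236 bp inside the outer 5′ end of Cdk12, 636 bp upstream of the start that the RefSeq promoter table lists for Cdk12, and 39 bp upstream of the 5′ end of Gm38963. The peak thus lies between starts that point away from each other, and peaks alone do not assign it to one of them. In replicate 1 the peak had signal 237 and rank 5, and in replicate 2 signal 201 and rank 9, with summits 17 bp apart. Both replicates therefore place it among their 10 strongest peaks. A weaker second peak, at chr11:98201797-98202156, had optimal signal 19.4 and rank 6861. It lay 456 bp upstream of the Cdk12 5′ end, inside Gm38963, and was not in the conservative list. The replicates differed more on it, with rank 27376 in replicate 1 and rank 6137 in replicate 2.

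In the Gm38963 window the Cdk12 summit is base 212, counted from 1 at the printed 5′ end. The ZBTB33-type motif TCGCGAGA matches at bases 148 to 155 and, on the other strand, at bases 263 to 270, one match on each side of the summit. ZBTB33 (Kaiso) and BANP are proteins known to bind this kind of CG-rich palindrome. The word CGCGATACTT occurs 3 times in the window and overlaps both motif matches. It was chosen after the sequence was seen. No other window of the 32851 in the table holds it more than 1 time, and 14 windows (0.0426%) hold it at all. Of the 13 others, 11 (84.6%) contain an optimal summit, against 7.25% of all windows. The windows of Rnf167 and Slc25a11 overlap and share a peak, so the 11 are not independent. Both also hold 2 or more ZBTB33-type sites, so the share for the word is not separate from that motif.

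Windows with the ZBTB33-type letters mostly held a CHD2 summit, also away from Cdk12, but most windows with a summit lacked the letters. The letters occur in 1.41% of the 21263 protein-coding promoter windows. Of those windows, 88.3% (264 of 299) hold an optimal summit, against 10.1% of all protein-coding windows. Conversely, 1891 of the 2155 protein-coding windows with an optimal summit have no match. Some windows belong to 1 gene with several starts or to divergent genes that share a peak, so they are not independent. Over all 32851 windows, an optimal summit was present in 6.45% of windows with no match and in 77.0% of those with 1 match. It was present in 97.6% of windows with overlapping matches on both strands (the palindrome TCTCGCGAGA) and in 97.4% of windows with 2 or more separate sites (38 of 39). The median signal of the strongest summit in these 4 classes was 42.0, 147, 242 and 268. The Gm38963 window had the highest signal of the class with 2 or more sites, 436, ahead of the shared Atp5pb and Wdr77 peak at 427. None of the 8 windows of the 9 genes' own starts holds the exact letters, including those of Ccnt1, Ccnk and Cdk7. The Ccnt1 and Ccnk windows do hold TCTCGCG under their optimal peaks. That is all but the last letter of the motif read on the other strand (TCTCGCGA). Such near matches were not counted over all windows.

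**Figure D2:**
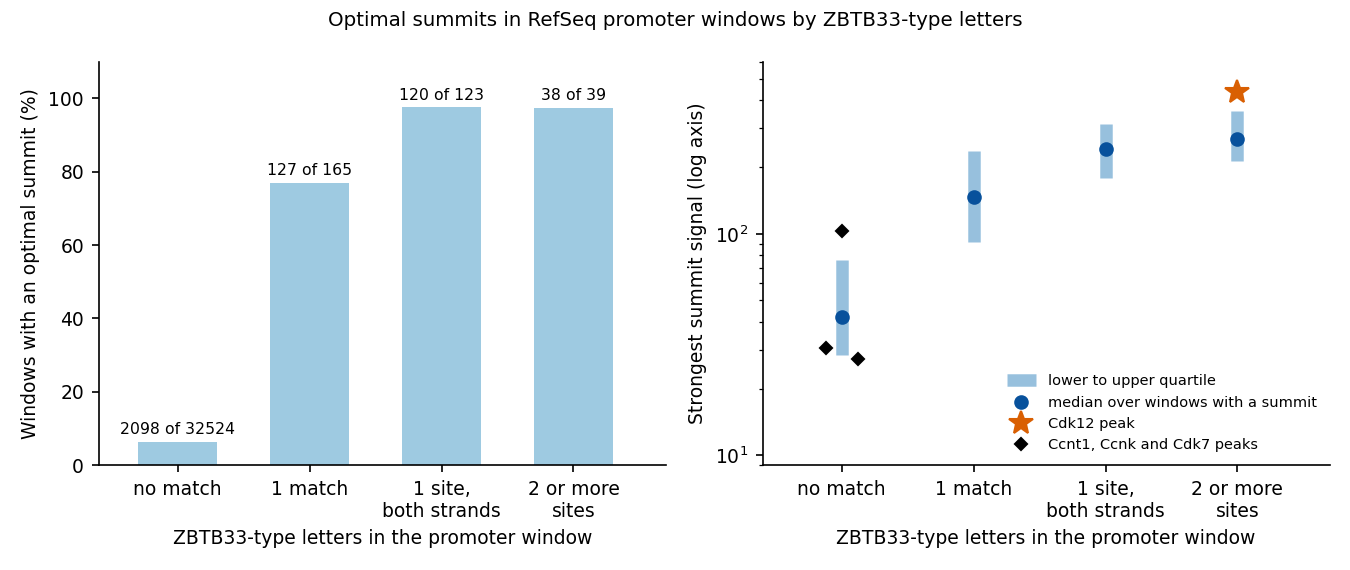
Left, the share of RefSeq promoter windows (300 bases) that hold an optimal summit, by ZBTB33-type matches in the window, with the number of windows above each bar; right, the median and quartiles of the strongest summit's signal (log axis) in those windows. The share rises from 6.45% with no match to 97.4% with 2 or more sites, the class of the Cdk12 peak (star), while the Ccnt1, Ccnk and Cdk7 peaks (diamonds) belong to windows with no exact match.

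Of the other 11 listed motifs, 3 matched several of the 8 windows, with and without a peak. SP/KLF (GGGCGG) matched all 8 windows and 46.2% of all protein-coding windows. ETS (CCGGAAG) matched 4 of the 8, those of Ccnt1, Cdk7, Cdk9 and Cdk13, and 11.6% of all. Ccnt1 and Cdk7 had an optimal peak while Cdk9 and Cdk13 had none. NFY (CCAAT) matched 4, those of Ccnk, Ccnt2, Cdk9 and Hexim1, and 38.2% of all. Some matches lay outside the gene's optimal peak. These were ETS at Ccnt1 (bases 171 to 177) and, at Ccnk, NFY (239 to 243) and SP/KLF (265 to 270). Of the SP/KLF matches at Ccnt1, that at bases 65 to 70 lay inside and that at 203 to 208 outside. The ETS and SP/KLF matches at Cdk7 lay inside. The Cdk12 window holds no part of an optimal peak, so a match in a window is not always under a peak. NRF1 (GCATGCG) matched only that of Hexim1, E-box (CACGTG) only that of Cdk7 and ZNF143-type (ACTACAA) only that of Cdk9, with shares of 4.44%, 7.84% and 3.60% of all windows. No window of the 8 held YY1 (AAGATGG), CRE (TGACGTCA), E2F (TTCCCGC), the core promoter box TATAAA or the octamer (ATGCAAAT). These occur in 6.24%, 2.23%, 5.95%, 12.6% and 1.66% of all protein-coding windows. All 8 windows were rich in CpG, from 19 CpG dinucleotides in the Cdk7 window to 52 in that of Cdk13, against a median of 13 over all protein-coding windows and 21 over those with an optimal summit. The highest CpG count thus belonged to a gene with no optimal peak.

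Cyclin K, the partner shared by CDK12 and CDK13, had a weaker peak than Cdk12. The Ccnk peak at chr12:108179361-108179720 had optimal signal 30.6 and rank 3945, near the lower quartile of the strongest promoter peaks of all genes (28.1, with a median of 45.0). Replicate 1 gave signal 12.7 and rank 6290, and replicate 2 signal 18.6 and rank 3396, with summits 52 bp apart. Its optimal summit lay 233 bp inside the outer 5′ end of Ccnk, 197 bp upstream of its listed start and 196 bp outside the coding gene Setd3, which encodes a SET-domain methyltransferase and runs the other way. As at Cdk12, the summit sat between starts that point away from each other. No non-coding gene was near, the closest being Gm33341 at 353840 bp from the summit.

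Cdk13, the closest relative of Cdk12, had no promoter peak in the optimal or conservative list. Its strongest pooled relaxed peak had signal 14 and rank 18000, at 869 bp upstream of the 5′ end. Replicate 1 ranked its strongest promoter peak 10687 (signal 10.0) and replicate 2 ranked it 79769 (signal 4.76). That 7.46-fold ratio of ranks was the widest of the 8 genes with a promoter peak in both replicates. Over the 6010 genes that, like Cdk13, had a relaxed promoter peak in both replicates and no optimal one, the median ratio was 2.67 and the quartiles 1.58 and 5.52. Over the 3014 with an optimal one, whose list was built on recurring ranks, the median was 1.75.

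Of the P-TEFb genes Cdk9, Ccnt1 and Ccnt2, Ccnt1 alone had an optimal promoter peak. The peak at chr15:98567900-98568024 had signal 103 and rank 765, above the upper quartile of all genes with one (88.9). In replicate 1 it had signal 63.9 and rank 585, and in replicate 2 signal 40.3 and rank 1113, with summits 41 bp apart. The summit was 244 bp upstream of the Ccnt1 5′ end and inside the long non-coding RNA 9330020H09Rik, 656 bp from that gene's nearer end. In the printed Ccnt1 window it is base 7, so most of the window lies on the gene's side of the summit.

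Ccnt2 and Cdk9 had relaxed peaks on which the replicates differed. For Ccnt2, replicate 1 had no promoter peak among its 300000, whereas replicate 2 had one of signal 14 at rank 5644, inside the non-coding gene 2900009J06Rik. The pooled list placed it at signal 14.7 and rank 16166. For Cdk9, the kinase of P-TEFb, replicate 1 had signal 11 and rank 8487 at 411 bp inside the gene. Replicate 2 had signal 7.25 and rank 24563 at 188 bp upstream, inside the microRNA gene Mir3960. These strongest Cdk9 peaks do not overlap, and their summits are 599 bp apart. At the replicate 1 site, replicate 2 had a weaker peak of signal 3.57 and rank 175936, with its summit 15 bp away.

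Hexim1 was the exception among the lists. It had no optimal promoter peak but had 2 conservative ones, at chr11:103115560-103115919 (signal 37.8, rank 2884) and chr11:103115771-103116130 (signal 24.3, rank 5201). Their summits were 585 bp and 374 bp upstream of the 5′ end, and the peaks overlapped each other by 149 bp. The replicates placed the stronger one closely: signal 19.6 and rank 3043 in replicate 1, signal 19.0 and rank 3261 in replicate 2, with summits 34 bp apart. The ratio of ranks by signal, 1.07, was the lowest of the 8 genes with a promoter peak in both replicates, against 1.85 for Ccnk and 1.99 for Cdk7, which are in the optimal list. Ranked by −log10 q-value, the peaks strongest by signal gave Hexim1 2973 and 7809, a ratio of 2.63, above those of Ccnk (1.05) and Cdk7 (1.37). The replicate 2 values behind these ranks were close, however: 2.49 for Hexim1, 2.51 for Ccnk and 2.54 for Cdk7. The weaker Hexim1 peak in replicate 2 (signal 13.3) had 2.51, so the Hexim1 ratio depends on which peak is taken. The rank of that peak by q-value was not taken.

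Such a gap was uncommon at that strength. Of the 2926 pooled peaks at or above the rank of Hexim1, 31 (1.06%) overlapped no optimal peak. Of 2200 genes with a promoter peak in the conservative list and among the 8282 strongest peaks of the pooled list and of both replicates, 61 (2.77%) lacked an optimal one. Over the whole conservative list, 1506 peaks (20.0%) overlapped no optimal peak, and 25.0% of those overlapped another conservative peak, against 14.9% of the rest. Hexim1 has that arrangement, and so does Cdk7, which has an optimal peak. How the optimal list came to lack Hexim1 was not tested.

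Cdk7 had the weakest optimal peak of the 4 genes, and Ccnh had none. The Cdk7 peak at chr13:100730716-100731075 had signal 27.3 and rank 4648, with its summit 46 bp inside the gene and at base 297 of the printed window. In replicate 1 the strongest promoter peak had signal 17.0 and rank 3789 at 66 bp inside, and in replicate 2 signal 12.1 and rank 7523 at 123 bp upstream. The replicates' summits were 189 bp apart, against a median of 24.0 bp over all 3014 genes. The conservative list held the same peak and a second one that overlaps it, with signal 9.58 and rank 7219 at 156 bp upstream. No non-coding gene lay near the optimal peak, the closest being the small nuclear RNA Gm24261 at 126434 bp. For Ccnh, replicate 1 gave signal 4.39 at rank 181913 and replicate 2 signal 5.21 at rank 61696.

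**Figure D3:**
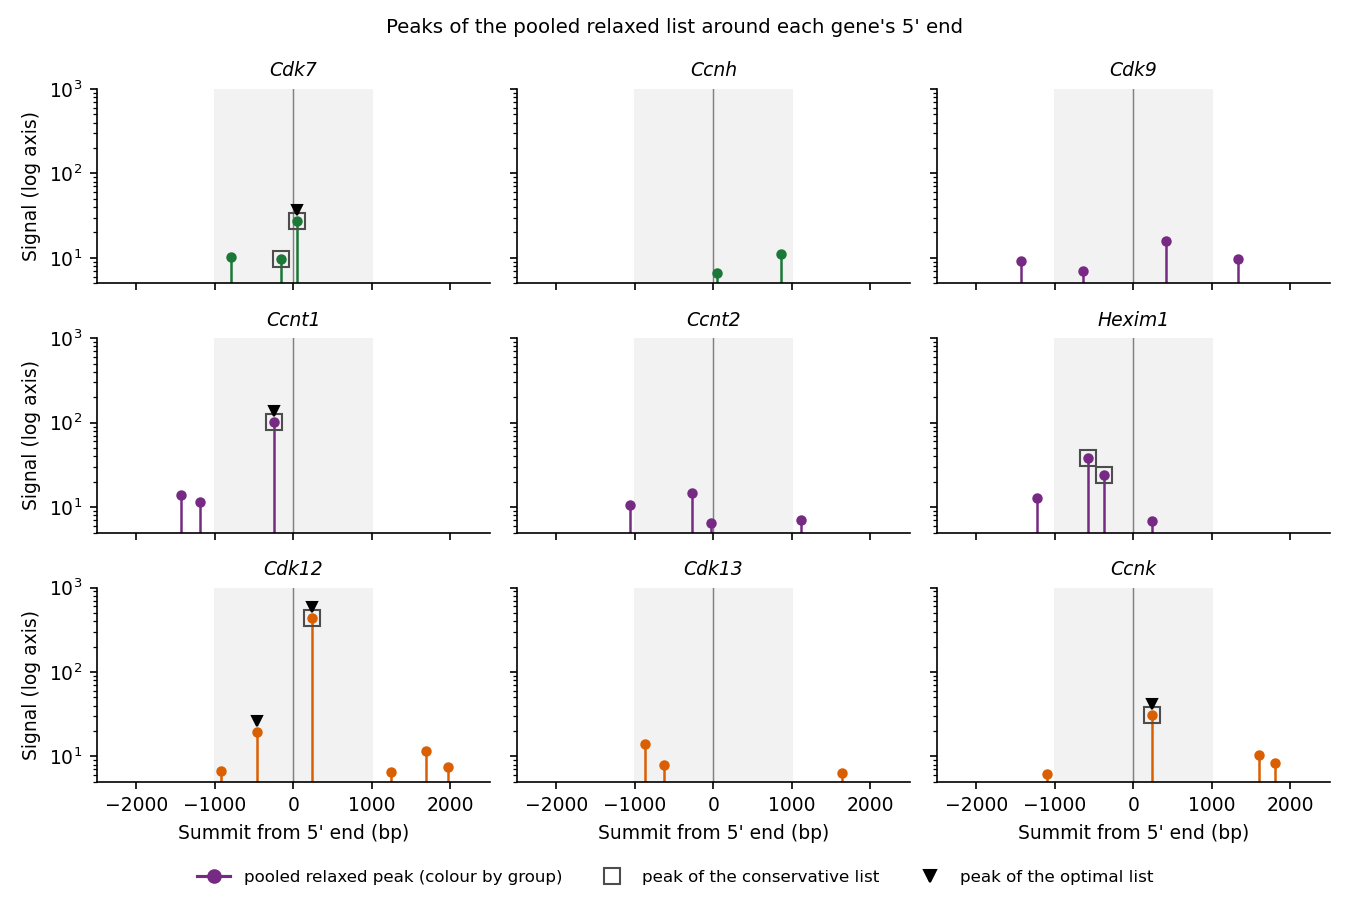
Signal (log axis) of each pooled relaxed peak against the distance of its summit from the outer 5′ end (bp), 1 panel per gene; the grey band is the 1 kb promoter window, squares mark conservative peaks and triangles, drawn above the point, optimal peaks. Cdk12 reaches 436 at 236 bp inside the gene, Hexim1 has 2 squares and no triangle, and Cdk13, Cdk9, Ccnt2 and Ccnh show points below 16.

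Ranked by signal within each replicate, the 9 genes had the same leaders. Cdk12, Ccnt1 and Hexim1 led in that order in replicate 1 (ranks 5, 585 and 3043) and in replicate 2 (9, 1113 and 3261). In replicate 2 Ccnk (3396) lay next to Hexim1, with signals of 18.6 and 19.0. Cdk7 came before Ccnk in replicate 1 and after it in replicate 2, so these neighbours do not have a settled order. By −log10 q-value, Cdk12 and Ccnt1 tied at rank 1 in replicate 1. In replicate 2 the order was Cdk12 (1), Cdk7 (2815), Ccnk (5982), Ccnt2 (6147), Ccnt1 (6935) and Hexim1 (7809). These are the ranks of each gene's peak strongest by signal. The other Hexim1 peak had a higher value, 2.51 against 2.49, so the last place of Hexim1 depends on that choice. Only the place of Cdk12 at the top, shared with Ccnt1 in replicate 1, held under both rankings. The −log10 q-value in replicate 2 was 3.18 for Cdk12, whereas those from Cdk7 to Hexim1 ran only from 2.54 to 2.49. The order below Cdk12 thus rests on small differences. Of all genes with an optimal promoter peak, the closest to Cdk12 in both replicates' ranks by signal were Atp5pb and Wdr77. These divergent genes share a peak of signal 427 at rank 7 in both replicates. The closest to Cdk7, the weakest of the 4, were Ccdc142 (optimal signal 28.6) and Bahd1 (31.1).

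**Figure D4:**
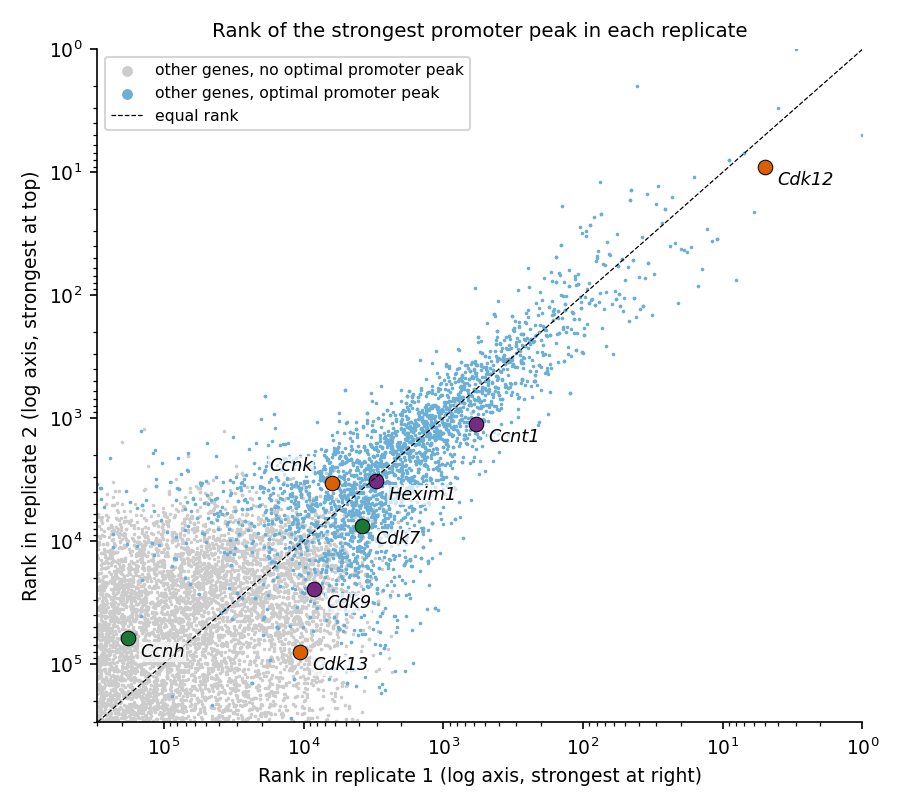
Rank of the strongest promoter peak in replicate 1 (x) and replicate 2 (y), both on log axes with the strongest at the right and top; grey and blue points are other genes without and with an optimal promoter peak, and the dashed line is equal rank. Cdk12 lies at 5 and 9 near the top right, Hexim1 lies on the line among blue points, and Cdk13 and Cdk9 lie below it; Ccnt2 has no promoter peak in replicate 1 and is not drawn.

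When each relaxed list was limited to its 8282 strongest peaks, the count of the 9 genes with a promoter peak was 5 in the pooled list (background 15.0%), 5 in replicate 1 (14.6%) and 6 in replicate 2 (14.2%). The 5 were Cdk7, Ccnt1, Hexim1, Cdk12 and Ccnk, and replicate 2 added Ccnt2. In the full relaxed lists, all 9 had a promoter peak in the pooled list and in replicate 2, against backgrounds of 57.8% and 59.7%. In replicate 1 there were 8, against 50.5%.

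No gene-body peak was found at any of the 9 genes in the optimal list (background 9.83%) or the conservative list (8.86%), or among the 8282 strongest peaks of replicate 1 (10.7%) or replicate 2 (10.3%). The background counts genes over 1 kb long, and the 9 bodies together span 316 kb. In the relaxed lists a body peak was common: 9 of 9 genes in the pooled list (76.9% of all genes), 8 of 9 in replicate 1 (76.0%) and 9 of 9 in replicate 2 (77.5%). Taken as 1 stretch, the 9 bodies held relaxed peaks more densely than all gene bodies, at 3.26 against 1.40 per 10 kb in the pooled list, 2.79 against 1.36 in replicate 1 and 2.63 against 1.41 in replicate 2. Cdk12 held 37 and Cdk13 held 32 of the 103 pooled body peaks. The genes differed: Ccnh, at 1.28, 0.428 and 0.428 per 10 kb, was below all genes in each of these lists, Ccnt1 was at 1.43 in the pooled list, and Hexim1 had none in replicate 1. The strongest pooled body peak, at Cdk12, had signal 14.6 and rank 16404 at 52174 bp inside the gene.

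At 4 of the 9 genes, the nearer end of a non-coding gene lay within 500 bp of the 5′ end: Cdk9 (Mir2861, 23 bp), Ccnt1, Ccnt2 (2900009J06Rik, 110 bp) and Cdk12. The same share over all protein-coding genes was not taken, so whether 4 of 9 is usual is unknown. Of these 4, Ccnt1 and Cdk12 had an optimal promoter peak. Of the other 5, Ccnk and Cdk7 had one.

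The mm9 list, made from the mm9 alignments of both replicates and holding 4613 peaks, was read against GENCODE M1 starts of protein-coding transcripts. Cdk12 had signal 1828 and rank 2 there, at 385 bp upstream of the nearest start. Ccnt1 had signal 117 and rank 837 at 344 bp upstream, and Cdk7 had signal 33.4, near the lowest in that list (32.7), at 49 bp upstream. Ccnk, Hexim1 and the other 4 genes had no promoter peak in it. The mm9 signals cannot be set against the mm10 ones.

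Beyond the 9 genes, 57 other genes of pausing, elongation and CTD modification were read from a list arranged by role. An optimal promoter peak was present at 18 of them (31.6%, against 14.1% of all protein-coding genes), with a median signal of 42.3 against 45.0 over all genes with one. The counts were 19 in the conservative list (33.3% against 13.6%) and 17 in each replicate's 8282 strongest peaks (29.8%, against 14.6% in replicate 1 and 14.2% in replicate 2). Among the P-TEFb partners, 1 of 3 had one, Mepce (signal 61.0), whose product caps 7SK RNA. Of 6 genes for the pausing factors NELF and DSIF, 2 had one, led by Supt5 (314, rank 73), which encodes the large DSIF subunit. Of 12 genes for the super elongation complex and BET proteins, 5 had one, led by the elongation factor gene Ell (170).

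TFIIH, the complex that contains CDK7 and cyclin H, had peaks at 2 of its 8 other genes, led by Gtf2h4 (38.8). The Mediator kinase module had 2 of 6, led by the kinase gene Cdk19 (61.1). Other transcription kinases and cyclins had 1 of 5, Cdk11b (33.8), with its summit 2 bp from the non-coding gene Gm16023. The PAF1 complex and Spt6 group had 3 of 8, led by Iws1 (99.2), a partner of Spt6. CTD phosphatases and CTD-binding proteins had 2 of 9, led by Rprd1b (43.5), which encodes a protein that binds the CTD. Its summit also lay 178 bp from the nearer end of the coding gene Tti1, which had the same replicate ranks. Some other summits in the list lay near a second coding gene as well, the closest at 18 bp. Peaks alone do not assign these to 1 gene. No gene of the list reached the Cdk12 signal of 436. Gene-body peaks were present at 8 of the 57 genes (14%) in the optimal list, against 9.83% of all genes over 1 kb long, among them Hexim2, the neighbour and relative of Hexim1, with signal 78.7 at 9781 bp inside its outer 5′ end. Hexim2 was picked after its value was seen. In the mm9 list, read against protein-coding transcript starts, Hexim2 had a promoter peak.

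**Figure D5:**
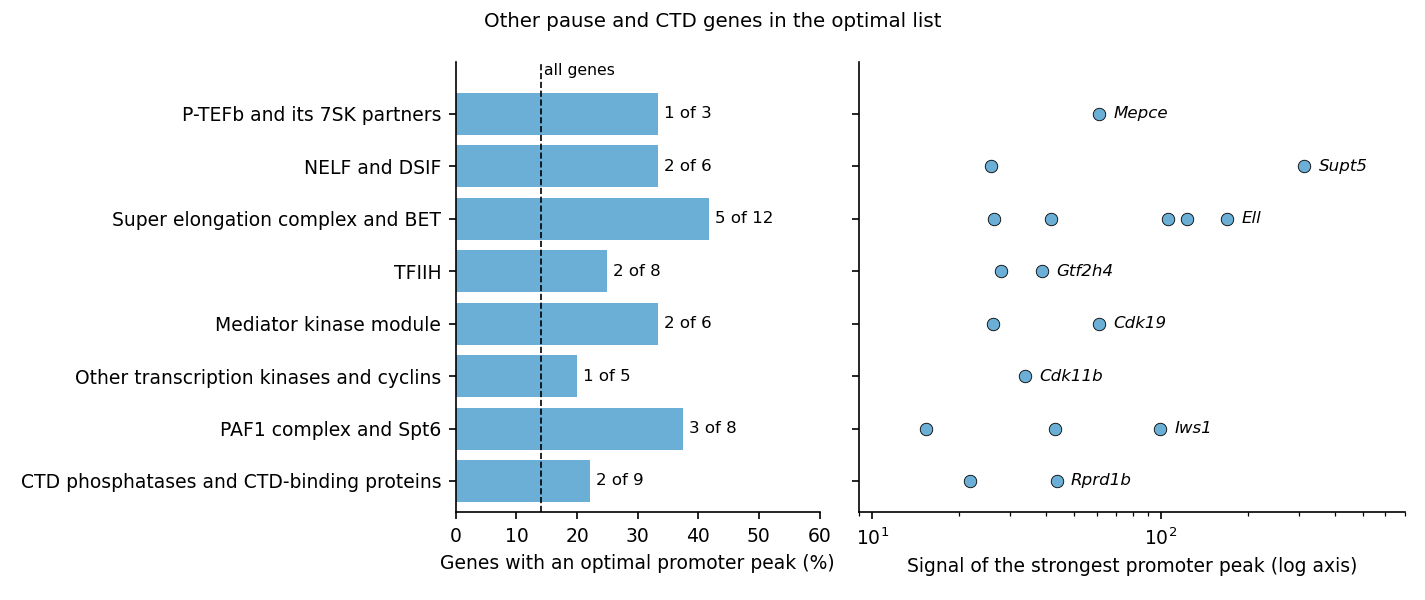
Left, the percentage of genes with an optimal promoter peak in each of the 8 roles, with counts beside the bars and a dashed line at the share of all protein-coding genes (14.1%); right, the signal (log axis) of each gene with a peak, the strongest of each role named. All 8 bars exceed the dashed line, from 1 of 5 to 5 of 12 genes, and Supt5 at 314 is the strongest point.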

How the data were processed

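CHD2 ChIP-seq peaks of ES-E14 cells (2 biological replicates, 1 group) were read from the lists the authors deposited. Both thresholded lists were made with the irreproducible discovery rate from the replicates' relaxed lists and the pooled one, per the deposited descriptions. The peak caller, the aligner and the use of a control, all not given in the sources used here, can shift every signal, and depth is unknown. The deposited signal per peak gave levels and ranks, and the deposited −log10 q-value gave an alternative ranking. Summits came from the deposited offset.

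With Python 3.11.15, pandas 2.3.3 and numpy 2.4.6, summits were joined to RefSeq genes of GRCm38.p6 (strand from the RefSeq promoter table for 17492 of 21458 genes and from GENCODE M1 for 3966) and the mm9 list to GENCODE M1. The join was tested on simulated data. Motif letters were matched exactly, on both strands, in the RefSeq windows. No test was run, since there is 1 group.

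The named genes are the 9, the strongest gene of each role, the nearest other gene to each peak, and the 2 genes nearest in replicate ranks to the strongest and weakest of the 9. The 9 genes and the role lists were chosen with earlier results of these data known, and 1 gene first listed among the roles is not reported here. Alternatives covered the list, each replicate alone, the stronger 50% of peaks, the window (500 bp, 2.5 kb), the gene-body start, peak interval against summit and the mm9 list.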

Additional observations from a re-analysis of the deposited data

How the results depend on the processing

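The number of the 9 genes with a promoter peak was 4 in the optimal list and lay between 2 and 6 over all alternatives. Leaving out replicate 1 gave 6 (replicate 2's own list), and leaving out replicate 2 gave 5. The stronger 50% of the optimal list gave 3, without Cdk7. The single count outside 1.5 times the main one was 2, in the mm9 list with outer gene ends, an alternative chosen after seeing the data: Ccnt1 is lost there because its outer end lies 2943 bp away from the summit. For the same reason the mm9 list gave 1 gene-body gene, Ccnt1, where every mm10 alternative gave 0. The pathway count went from 12 to 20 around 18, and the share of all genes from 9.99% to 16.2% around 14.1%; leaving out either replicate gave 17 pathway genes, and shares of 14.2% and 14.6%. Starts listed by RefSeq, also chosen after seeing the data, gave 4 of the 9 genes and 14 pathway genes. Ranking by −log10 q-value kept each gene's peak strongest by signal. It moved 7 of the 16 ranks of genes seen in both replicates by more than 1 SD of the replicates. That SD comes from only 2 ranks per gene. It is thus narrow for Cdk12 (5 and 9) and wide for Cdk13 (10687 and 79769), so the count is a rough guide. Cdk12 tied at rank 1 in both, and in replicate 2 Ccnt1 went to 6935 and Hexim1 to 7809. Matching by overlap with the optimal peak moved 0 of 8. No paired analysis was possible because the result comes from no test of groups. Depth is unknown, so for a missing weak peak these lists cannot tell absence from lack of detection.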
